A study of Mus musculus with 6 samples.

Results

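The genes described here encode subunits of the RNA polymerases, RNA helicases, nucleolar proteins and WD-repeat proteins. They were chosen by symbol: names beginning with Polr, or with Ddx, Dhx, Wdr, Nop, Nol, Utp or Rrp followed by a digit, without the antiviral helicases Ddx58, Ddx60 and Dhx58. The rule took 50 of the 3257 genes analysed. RNA was sequenced from primary Sertoli cells, the somatic cells that nurse germ cells in the seminiferous tubule, of mice on a C57BL/6 background. The knockout (KO) group held 3 libraries, from cells of UXT knockout animals that had been infected with a virus carrying Cre recombinase. The wild-type (WT) group held 3 libraries, from cells given an empty plasmid. Cells of both groups were cultured after differential plating and infected more than once, per the labels' protocols. The age of the animals, the promoter that drove Cre and the number of animals per library are not stated in the labels, and p-values measure only the spread between libraries, which may be technical. Cre and the loss of UXT were present in the same libraries and cannot be told apart.

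UXT (ART-27) resembles the prefoldins in its fold and acts as a cofactor of the androgen receptor. It is also part of a chaperone-like complex built around URI, a protein that binds a subunit common to all 3 nuclear RNA polymerases, and this complex is known for its part in polymerase assembly. RNA polymerase I transcribes the ribosomal RNA precursor in the nucleolus. RNA polymerase III makes 5S ribosomal RNA and transfer RNA, and RNA polymerase II makes messenger RNA. The precursor is folded, cut and modified on large assemblies, among them the small subunit processome, whose parts include many Utp, Nop, Rrp and WD-repeat proteins and several DEAD-box and DEAH-box helicases.

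Every gene analysed had been selected by the authors at a fold of at least 1.5 between the same libraries. Which genes are described, and that they differ between the groups, therefore follows from the selection, and the differences below are a description and not evidence. Fold changes are those in the authors' deposited table, KO over WT. Values per library are the deposited normalized values on a log2 scale, whose transformation was not given. They appear to be moderated: for the 50 genes the difference between group means was 0.63 of the authors' log2 fold (median, range 0.47 to 0.66). The scale is not per length, so levels are not compared between genes. No counts were used, so the depth is unknown. The median log2 value over all genes analysed lay between 8.82 and 8.91 in KO libraries and between 9.15 and 9.18 in WT libraries. Uxt was not among the genes analysed here, so the labels could not be checked on the targeted transcript.

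The transcripts of this group were mostly higher in KO cells. Of the 50 genes, 46 were higher and 4 lower, though the 4 were not called once the libraries were rescaled, and all 50 passed limma at an adjusted p under 0.05. Over all genes analysed limma called 99.6%, with 32.1% called higher and 67.5% called lower. The authors' deposited table held 32.1% higher and 67.9% lower genes. The KO and WT values of all 50 genes did not overlap, and the same held for 97.5% of all genes analysed (31.7% higher and 65.8% lower). Since the selection used the same contrast, nothing is read from these shares. The median fold of the 46 higher genes was 1.69 in the authors' deposited table, against 1.75 for the 1047 higher genes of that table. A fold of at least 2 was reached by 10 of the 46 (21.7%), against 29.0% of the table's higher genes. Over all genes analysed, 9.33% were higher with a fold of at least 2. The folds nearest the authors' threshold were those of Ddx52 at 1.51, Polr3g at 1.51 and Polr2a at 1.52, and values outside the threshold were not analysed here. The labelled cell type was checked on its markers in the same libraries. Of 18 Sertoli cell markers 13 were analysed, Sox9, Wt1 and Amh among them, and all 13 were lower in KO cells (median 3.83-fold in the authors' deposited table), with summed log2 values of 114 to 118 in KO libraries, against 130 to 134 in WT libraries. All 14 macrophage markers, which Sertoli cells should lack, were analysed and lower, with summed log2 values of 119 to 122 in KO libraries, against 138 to 143 in WT libraries. Of 12 endothelial markers 11 were analysed and lower, with sums of 82.3 to 83.5 in KO libraries, against 98.1 to 99.4 in WT libraries. Of 7 myoid markers 6 were analysed and lower, of 7 fibroblast markers 3 were analysed and lower, and of 7 Leydig cell markers 3 were analysed and higher. Of 11 germ cell markers 3 were analysed, and 1 was higher and 2 lower. The part of these cell types in the results on the polymerase and nucleolar genes was not tested. In bulk RNA, fewer cells of a type and less RNA per cell cannot be told apart.

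**Figure D1:**
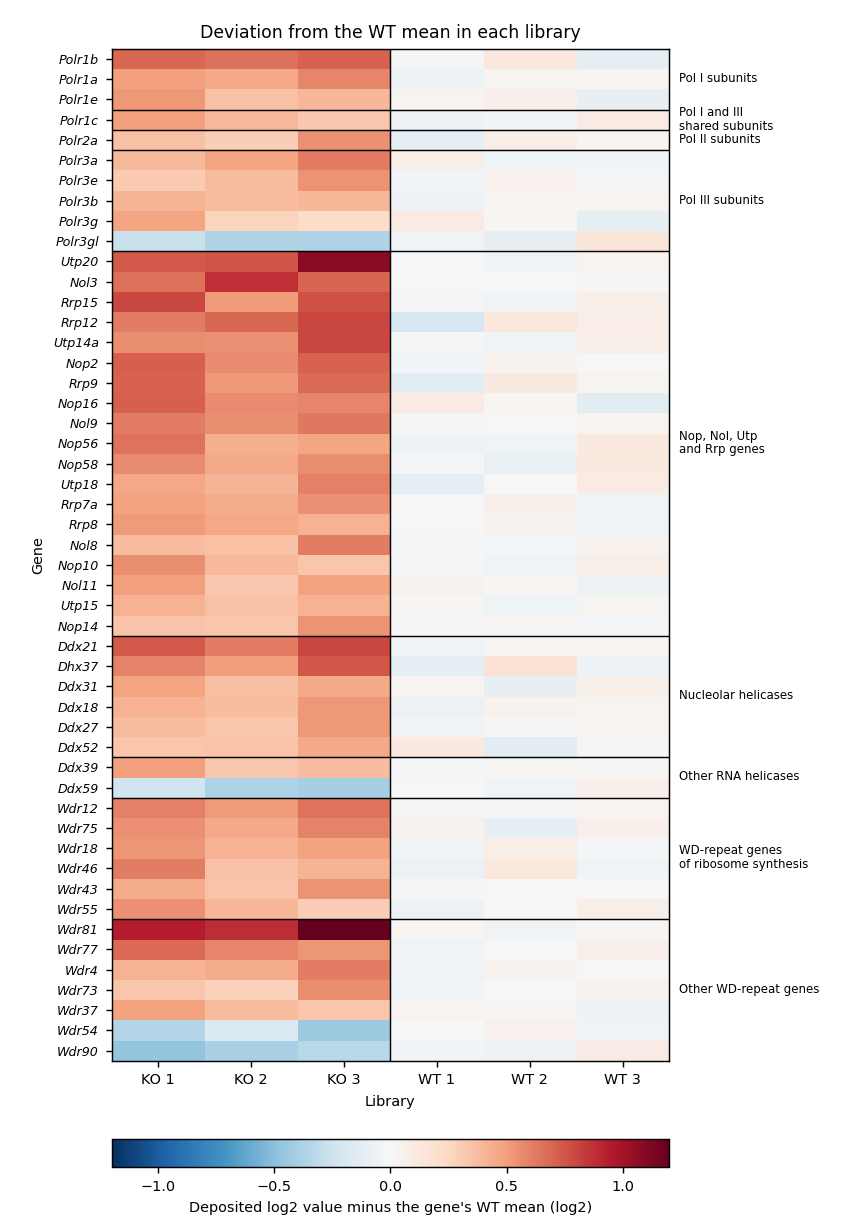
Heat map of the 50 genes (rows, by role) in 6 libraries (columns, KO left of WT), coloured by the deposited log2 value minus the gene's WT mean. The 46 higher genes are red in KO 1, KO 2 and KO 3, and the 4 lower genes, Polr3gl, Ddx59, Wdr54 and Wdr90, are blue. The direction of the 4 turned after quantile normalization but not after the median shift, and both scalings raise the typical difference by construction.

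The differences of the 4 lower genes were small enough to depend on how libraries were scaled. The median difference of all genes analysed was -0.40 on the log2 scale, in a table selected by fold in which 67.9% of genes were lower. It was higher by 0.33 under quantile normalization and by 0.30 when each library was shifted to a common median. Both scalings re-centre this selected table, so they raise the typical difference by construction. Differences between -0.40 and -0.32, as these 4 genes had, come close to 0, and the 46 higher genes can hardly lose their direction. After quantile normalization the 4 differences were between 0.03 and 0.10, and after the median shift they stayed below 0, between -0.10 and -0.03. Under either, limma called none of the 4, and 0 of the 4 had an unadjusted p under 0.05, while all 46 higher genes kept their call. Over all genes analysed, 1044 were called higher and 2200 lower without rescaling, against 1047 higher and 1143 lower after quantile normalization and 1047 higher and 1024 lower after the median shift.

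For RNA polymerase I, 4 of its 13 subunit genes were analysed and all 4 were higher in KO cells. Polr1b, the second-largest subunit, which forms the active site with the largest, lies at chr2:129100970-129128060 in GRCm38. Its log2 values were 10.31, 10.28 and 10.33 in KO libraries, against 9.60, 9.75 and 9.51 in WT libraries. The KO values lay close together (SD 0.02, n = 3), and the lowest of them stood 0.53 above the highest WT value. Its fold of 2.17 in the authors' deposited table was above those of the other subunits. Polr1a, the largest subunit, had log2 values of 12.08, 12.05 and 12.17 in KO libraries, against 11.53, 11.62 and 11.61 in WT libraries (1.73-fold in the authors' deposited table). Polr1e, a subunit found only in polymerase I, had 9.85, 9.68 and 9.72 in KO libraries, against 9.36, 9.39 and 9.23 in WT libraries (1.64-fold in the authors' deposited table). Polr1c, which polymerases I and III share, had 11.02, 10.92 and 10.85 in KO libraries, against 10.46, 10.49 and 10.62 in WT libraries (1.56-fold in the authors' deposited table). In each of the 4 genes the KO library with the lowest value was above the WT library with the highest. The 5 subunits common to polymerases I, II and III, among them Polr2e, which encodes the one bound by URI, were not analysed here.

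For RNA polymerase III, 6 of 18 genes were analysed, counting Polr1c, and 5 were higher and 1, Polr3gl, lower, which was not called after rescaling. Polr3a, the largest subunit, had log2 values of 10.48, 10.56 and 10.71 in KO libraries, against 10.17, 10.04 and 10.06 in WT libraries (1.74-fold in the authors' deposited table). Polr3b, the second-largest, had 10.77, 10.74 and 10.76 in KO libraries, against 10.30, 10.39 and 10.40 in WT libraries (1.55-fold in the authors' deposited table). Polr3e, a subunit specific to polymerase III, had 10.76, 10.83 and 10.98 in KO libraries, against 10.41, 10.50 and 10.43 in WT libraries (1.58-fold in the authors' deposited table). In all 3 genes the groups were separate, by 0.27 to 0.34 on the log2 scale.

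Polr3g and Polr3gl encode alternative forms of one subunit, and the polymerase holds one or the other. In mammals the Polr3g form is known from stem cells and proliferating cells and the Polr3gl form from most tissues. The paralogs stood in opposite directions in the deposited values, though not after quantile normalization, where both differences were above 0. That scaling raises the typical difference of this selected table by construction, so nothing about the paralogs is read from the turn. Polr3g, at chr13:81673837-81711013 in GRCm38, had log2 values of 8.98, 8.78 and 8.73 in KO libraries, against 8.61, 8.53 and 8.39 in WT libraries. Its groups were 0.12 apart, the narrowest gap of the 50 genes. Polr3gl, at chr3:96577872-96594181, had 8.30, 8.21 and 8.21 in KO libraries, against 8.52, 8.48 and 8.71 in WT libraries, a gap of 0.18. Polr3gl overlaps an exon of the protein-coding gene Gm16253 on the other strand, so its values are uncertain if reads were counted without strand. In the authors' deposited table Polr3g was 1.51-fold higher and Polr3gl 1.56-fold lower. Subtracted within each library, Polr3g minus Polr3gl was 0.68, 0.57 and 0.52 in KO libraries, against 0.09, 0.05 and -0.32 in WT libraries. The mean was 0.59 ± 0.09 in KO cells and -0.06 ± 0.22 in WT cells (SD, n = 3 each). The size of this subtraction depends on the lengths of both transcripts and is not read. Its change between the groups follows from the selection of both genes in opposite directions. Because the deposited values appear to be moderated, the size of that change is not read either. The call of Polr3g was lost without KO replicate 1 (limma, adjusted p = 0.0598) and without WT replicate 3 (limma, adjusted p = 0.0606), and the difference of Polr3gl was 0.10 after quantile normalization.

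**Figure D2:**
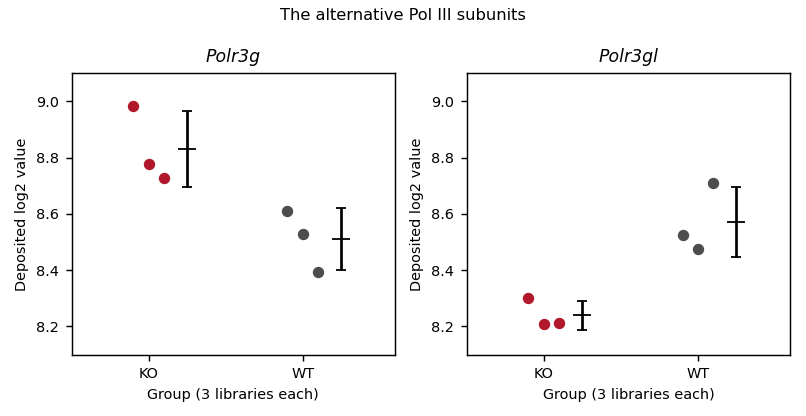
Deposited log2 values (vertical axes) of Polr3g and Polr3gl in 3 KO and 3 WT libraries, with the mean and SD of each group beside the points. The KO points of Polr3g lie above its WT points by 0.12, and the KO points of Polr3gl lie below its WT points by 0.18. The order of the Polr3gl means turned after quantile normalization (difference 0.10) but not after the median shift (-0.04). Both scalings raise the typical difference by construction.

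Of the 12 subunits of RNA polymerase II, Polr2a was the 1 analysed. It encodes the largest subunit, whose long tail of repeats couples transcription to RNA processing. Its log2 values were 13.73, 13.68 and 13.94 in KO libraries, against 13.28, 13.47 and 13.42 in WT libraries (1.52-fold in the authors' deposited table). The groups did not overlap, with 0.22 between them.

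All 19 Nop, Nol, Utp and Rrp genes analysed were higher in KO cells, with folds from 1.56 to 2.55 in the authors' deposited table (median 1.75). Of these, 7 reached a fold of 2: Utp20, Nol3, Rrp15, Rrp12, Utp14a, Nop2 and Rrp9. Utp20, a very large scaffold protein of the small subunit processome, lies at chr10:88746607-88826814 in GRCm38. Its log2 values were 11.64, 11.66 and 11.98 in KO libraries, against 10.90, 10.86 and 10.94 in WT libraries. KO 3 stood above the other KO libraries (SD 0.19 in KO, against 0.04 in WT, n = 3 each), and all 3 were above the WT values. Rrp15, whose yeast counterpart acts in large subunit maturation, had 10.27, 9.98 and 10.23 in KO libraries, against 9.45, 9.42 and 9.54 in WT libraries (2.22-fold in the authors' deposited table). Rrp12, whose yeast counterpart helps to export pre-ribosomes, had 10.55, 10.63 and 10.73 in KO libraries, against 9.73, 10.05 and 10.01 in WT libraries (2.16-fold in the authors' deposited table). WT 1 was the low library of Rrp12, which had the widest WT spread of the 50 genes (SD 0.18, n = 3).

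Nol3 carries the name of a nucleolar protein but is known as ARC, a repressor of apoptosis in muscle and heart. It had log2 values of 10.24, 10.46 and 10.28 in KO libraries, against 9.57, 9.57 and 9.59 in WT libraries (2.35-fold in the authors' deposited table). The WT libraries were nearly level, with an SD of 0.01, and the groups were 0.65 apart.

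Several assemblies had all of their genes among those analysed. These assemblies were drawn up with the results known, and they mix genes chosen by symbol with their partners of other names. UTP-A, which binds the growing precursor first, had 6 of 6 genes higher, from 1.56-fold for Utp15 to 2.32-fold for Heatr1 in the authors' deposited table. Nol11, Wdr43, Wdr75 and Cirh1a, which RefSeq calls Utp4, lay between them. The U3 box C/D particle guides the first cuts of the precursor. Its 5 genes, Nop56, Nop58, Rrp9, Nhp2l1 and the methyltransferase gene Fbl, were all higher. In the authors' deposited table Nop56 stood at 1.75-fold, Nop58 at 1.74-fold, Rrp9 at 2.03-fold and Fbl at 2.02-fold. The H/ACA particle converts uridine to pseudouridine. Its 4 genes were higher too, with Nop10 at 1.61-fold, Dkc1 at 1.88-fold, Gar1 at 1.99-fold and Nhp2 at 1.65-fold in the authors' deposited table.

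Other assemblies were represented in part. UTP-B had 2 of 6 genes analysed, and in the authors' deposited table Utp18 stood at 1.73-fold and Pwp2 at 2.14-fold. The Rix1 and Las1l complexes, which act in the removal of a spacer of the precursor, had 3 of 6, Nol9 at 1.92-fold, Wdr18 at 1.68-fold and Tex10 at 1.53-fold in the authors' deposited table. PeBoW, a complex of large subunit maturation, had 1 of 3, Wdr12. Of the enzymes that modify 28S ribosomal RNA, Nop2 was 2.04-fold and Rrp8 1.66-fold higher in the authors' deposited table. Utp14a, whose yeast counterpart activates the counterpart of the helicase Dhx37, was 2.04-fold and Dhx37 1.96-fold higher in the authors' deposited table. Nop16, Nol8 and Nop14, also known from the nucleolus, were 1.98-fold, 1.65-fold and 1.56-fold higher in the authors' deposited table. Genes of these assemblies that were not analysed cannot be called unchanged.

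**Figure D3:**
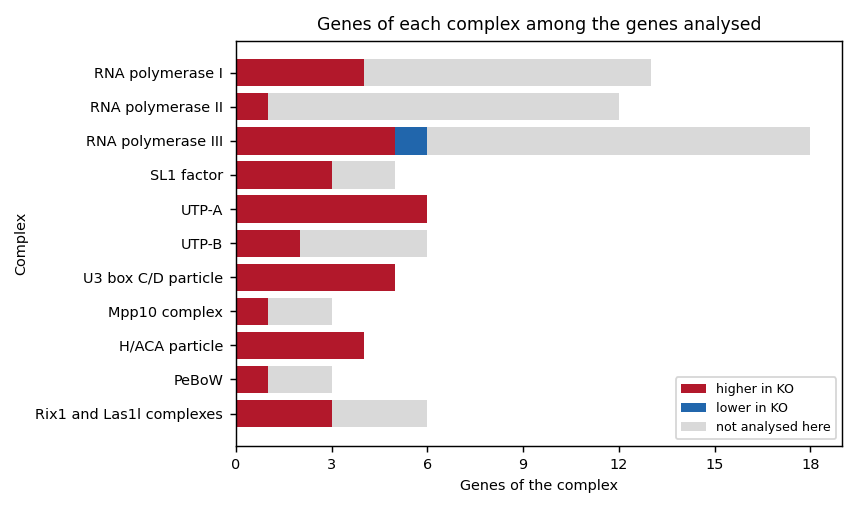
Number of genes (horizontal axis) of each polymerase or ribosome assembly complex (rows) that were higher in KO cells, lower in KO cells or not analysed here. UTP-A (6 genes), the U3 box C/D particle (5) and the H/ACA particle (4) were complete and higher, while RNA polymerase II had 1 of 12 genes.

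The 6 nucleolar helicases analysed were all higher in KO cells, with folds from 1.51 to 2.14 in the authors' deposited table. Ddx21, a DEAD-box protein that acts in both the transcription and the processing of ribosomal RNA, had log2 values of 13.52, 13.41 and 13.59 in KO libraries, against 12.75, 12.81 and 12.82 in WT libraries. The gap of 0.59 between its groups was the widest among the helicases. Dhx37, a DEAH-box protein whose yeast counterpart frees U3 from the precursor, had 10.86, 10.76 and 11.00 in KO libraries, against 10.15, 10.43 and 10.20 in WT libraries. WT 2 was the high WT library of Dhx37 and still lay 0.33 below the lowest KO value. Ddx31 had 9.48, 9.37 and 9.46 in KO libraries, against 9.04, 8.91 and 9.08 in WT libraries (1.67-fold in the authors' deposited table). Ddx18 had 10.06, 10.01 and 10.16 in KO libraries, against 9.56, 9.68 and 9.67 in WT libraries (1.66-fold in the authors' deposited table). Both helicases are known from large subunit maturation. Ddx52, with log2 values of 10.85, 10.85 and 10.97 in KO libraries, against 10.63, 10.38 and 10.52 in WT libraries, had the fold nearest the authors' threshold among the 50 genes. Ddx27 was 1.57-fold higher in the authors' deposited table.

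The other helicases analysed were Ddx39 and Ddx59, and they stood in opposite directions except after quantile normalization, which raises the typical difference by construction. Ddx39, called Ddx39a in RefSeq, acts in the export of messenger RNA. Its log2 values were 11.24, 11.07 and 11.12 in KO libraries, against 10.72, 10.77 and 10.76 in WT libraries (1.54-fold higher in the authors' deposited table). Ddx59, linked in humans to a ciliopathy, had 8.68, 8.56 and 8.53 in KO libraries, against 8.92, 8.87 and 8.99 in WT libraries (1.53-fold lower in the authors' deposited table, with a difference of 0.03 after quantile normalization). The 3 helicases left out by the rule sense viral RNA. In the authors' deposited table Ddx58 was 1.79-fold, Ddx60 2.19-fold and Dhx58 2.59-fold lower.

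WD-repeat proteins share a propeller fold that serves as a platform for other proteins, and their functions differ widely. The 6 that act in ribosome synthesis were all higher in KO cells, from 1.62-fold for Wdr55 to 1.98-fold for Wdr12 in the authors' deposited table. Wdr12 had log2 values of 10.13, 10.04 and 10.18 in KO libraries, against 9.52, 9.51 and 9.56 in WT libraries. Wdr75 had 11.47, 11.38 and 11.51 in KO libraries, against 10.96, 10.82 and 10.98 in WT libraries. For both, the groups were further apart than the spread within either. Wdr18 had 11.45, 11.33 and 11.40 in KO libraries, against 10.86, 10.99 and 10.89 in WT libraries. Wdr46, a small subunit processome protein, had 11.04, 10.77 and 10.83 in KO libraries, against 10.35, 10.54 and 10.37 in WT libraries. Wdr46 had the higher KO spread of these 2 (SD 0.14, against 0.06 for Wdr18, n = 3 each).

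The remaining 7 WD-repeat genes act outside ribosome synthesis or have functions less well known, and 5 were higher and 2 lower, the 2 not called after rescaling. Wdr81, which acts in endosomal trafficking and lies at chr11:75440943-75454808 in GRCm38, had the largest fold of the 50 genes, 3.12 in the authors' deposited table. Its log2 values were 12.60, 12.54 and 13.02 in KO libraries, against 11.68, 11.61 and 11.68 in WT libraries. KO 3 was the high library, and the SD of 0.26 in KO cells was the widest of the 50 genes (n = 3). Without KO replicate 3 the difference of Wdr81 remained in the same direction and called. Wdr77, at chr3:105959498-105969760, is the partner of the arginine methyltransferase Prmt5 and has been described as a coactivator of the androgen receptor. It had log2 values of 11.53, 11.43 and 11.38 in KO libraries, against 10.79, 10.84 and 10.91 in WT libraries (1.92-fold in the authors' deposited table). Wdr4, which with Mettl1 methylates transfer RNA, had 9.99, 10.02 and 10.19 in KO libraries, against 9.54, 9.62 and 9.57 in WT libraries (1.76-fold in the authors' deposited table). Wdr73, mutated in a human kidney and brain syndrome, had 9.32, 9.26 and 9.54 in KO libraries, against 8.95, 8.98 and 9.02 in WT libraries (1.61-fold in the authors' deposited table). Wdr37 was 1.57-fold higher in the authors' deposited table.

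Wdr90, a protein of the centriole wall, had log2 values of 7.58, 7.67 and 7.72 in KO libraries, against 8.02, 7.99 and 8.15 in WT libraries (1.77-fold lower in the authors' deposited table, with a difference of 0.05 after quantile normalization). Wdr54 had 7.46, 7.64 and 7.36 in KO libraries, against 7.80, 7.86 and 7.77 in WT libraries (1.61-fold lower in the authors' deposited table, with a difference of 0.10 after quantile normalization). The groups of Wdr54 were 0.13 apart, and KO 2 was the KO library nearest to the WT values. The values of both are uncertain because of overlapping genes: Wdr90 shares exon sequence with Rhot2 on the same strand and Wdr54 with Rtkn on the other strand in GENCODE.

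**Figure D4:**
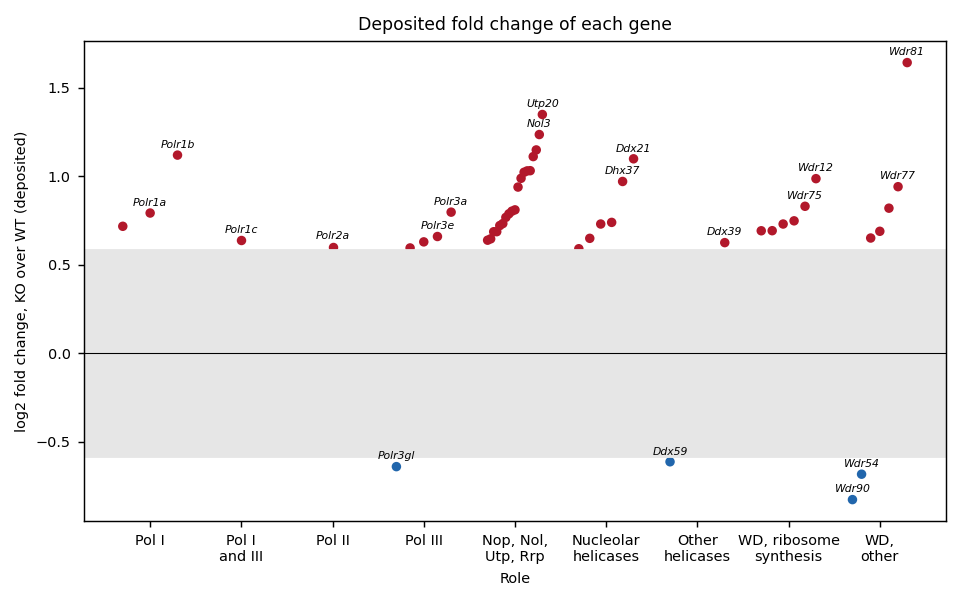
Log2 fold change, KO over WT, in the authors' deposited table (vertical axis) of each of the 50 genes, by role (horizontal axis), with the 2 highest and every lower gene of a role named. The grey band marks folds under 1.5, which the table does not hold, and the highest points are Wdr81 (3.12-fold), Utp20 (2.55-fold) and Nol3 (2.35-fold). The 4 lower genes turned after quantile normalization but not after the median shift, and both scalings raise the typical difference by construction.

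Of the genes of ribosome synthesis and polymerase function under other names, those analysed were higher in KO cells except for 1, Vbp1. Those that were not analysed have no value here. The lists were chosen with earlier results of these data known. Since the authors' selection used the same contrast, nothing is read from the shares called. Of 85 further genes of ribosome synthesis, 45 were analysed and all 45 were called higher by limma at an adjusted p under 0.05, beside the 32.1% called higher overall. Their median fold was 1.70 in the authors' deposited table. In the authors' deposited table the 3 largest folds were 2.66 for Rbm19, 2.36 for the histone chaperone gene Grwd1 and 2.32 for Heatr1. Of 28 further factors of polymerases I and III, 5 were analysed and all 5 were higher, including 3 subunits of SL1, which recruits polymerase I: in the authors' deposited table Taf1a stood at 1.75-fold, Taf1c at 1.69-fold and Taf1d at 1.83-fold. Snapc4, a subunit of the factor for small nuclear RNA genes, was 2.13-fold higher in the authors' deposited table. Of 52 general factors of polymerase II, 4 were analysed and all 4 were higher, with Taf4b at 2.01-fold, Taf7 at 1.96-fold and Taf9 at 1.72-fold in the authors' deposited table. Of 26 genes of the URI complex and of polymerase assembly, 4 were analysed. The polymerase assembly factor gene Rpap3 and the ATPase genes Ruvbl1 and Ruvbl2 were 1.55-fold, 1.58-fold and 1.5-fold higher, and the prefoldin gene Vbp1 2.76-fold lower, in the authors' deposited table.

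By symbol, 181 protein-coding genes of RefSeq meet the same rule, and 52 of them were analysed (28.7%). These include Nop53 and Utp4, which stood in the table as Gltscr2 and Cirh1a, so the rule did not take them. In the authors' deposited table Gltscr2 was 1.63-fold and Cirh1a 1.65-fold higher. The share was 87.5% for Nop genes (7 of 8), 62.5% for Rrp genes (5 of 8), 45.5% for Utp genes (5 of 11) and 40.0% for Nol genes (4 of 10). It was 34.5% for Polr genes (10 of 29), 20.0% for Ddx genes (7 of 35), 20.0% for Wdr genes (13 of 65) and 6.67% for Dhx genes (1 of 15). Of all 21900 protein-coding genes of RefSeq, 14.4% were analysed. These shares include genes that Sertoli cells may not express, and no test was made of them.

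The KO libraries were not level across the 46 higher genes. KO 2 had the lowest KO value in 32 of the 46 genes (69.6%), against 54.0% of the 1047 higher genes of the table. KO 2 had the highest KO value in 1 gene, Nol3 (2.2%), against 11.7% of the table's higher genes. KO 3 was highest in 24 genes (52.2%) and KO 1 in 21 (45.7%), against 58.0% and 30.3% of the table's higher genes. The median deviation from the WT mean over the 46 genes was 0.52 in KO 1, 0.42 in KO 2 and 0.55 in KO 3. Among WT libraries, WT 1 was lowest in 23 genes. The median SD between libraries over the 50 genes was 0.09 in KO cells and 0.06 in WT cells, and over all genes analysed it was 0.10 in KO cells and 0.09 in WT cells (n = 3 per group). Without any 1 of the 6 libraries, between 45 and 46 genes were called higher, and the gene lost was Polr3g.

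Promoter sequences of RefSeq were examined because 46 of the 50 genes stood higher together. A window from 250 bases before to 50 bases after the start was on hand for 45 of the 50 genes (GRCm38.p6). The E-box letters CACGTG, which proteins of the MYC, USF and TFE families can bind, were found in the windows of 11 of 45 genes (24.4%). They were found in 28.2% of 39 other genes of ribosome synthesis, 15.1% of 848 higher genes of the table, 10.5% of 2468 genes of the table and 8.91% of all 17492 protein-coding genes with a window. Of the 11 genes, 10 were higher and 1, Polr3gl, was lower in the deposited values. Both strands were searched, and a match says only that the letters are there. The stretches below are shown because the letters lie before the start and outside the annotated gene. Capitals mark the E-box, and the strand is that of the gene.
Nop2 (chr6:125131783-125131868, plus strand): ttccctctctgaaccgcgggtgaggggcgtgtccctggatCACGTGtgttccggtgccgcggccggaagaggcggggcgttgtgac
Utp18 (chr11:93885767-93885826, minus strand): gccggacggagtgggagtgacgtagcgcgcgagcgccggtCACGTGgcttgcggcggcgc
Nol11 (chr11:107189382-107189464, minus strand): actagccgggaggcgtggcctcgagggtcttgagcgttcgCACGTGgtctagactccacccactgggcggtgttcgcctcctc
Rrp7a (chr15:83122964-83123049, minus strand): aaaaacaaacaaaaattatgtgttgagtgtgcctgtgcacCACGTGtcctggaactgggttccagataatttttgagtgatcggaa
Polr3gl (chr3:96594330-96594415, minus strand): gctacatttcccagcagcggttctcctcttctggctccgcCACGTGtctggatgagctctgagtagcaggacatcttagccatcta
In Nop2, Utp18 and Nol11 the letters begin at -60, -20 and -43, counted from the start. In Rrp7a and in Polr3gl, the gene that stood lower, they begin at -208 and -194.

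Other motif letters were counted in the same windows on both strands, and none of the strings contains another. The ETS letters CCGGAAG were in 24.4% of the 45 genes, close to the 21.5% of higher genes of the table, and in 48.7% of the other ribosome synthesis genes, 11.9% of genes of the table and 12.9% of all protein-coding genes. The GC box letters GGGCGG were in 77.8% of the 45 genes, 67.9% of higher genes, 61.1% of genes of the table and 49.2% of all protein-coding genes. The palindrome of NRF1 was in 17.8% of the 45 genes, 12.9% of higher genes and 9.61% of all protein-coding genes. The CCAAT letters were in 37.8% of the 45 genes, 37.4% of higher genes and 42.3% of all protein-coding genes, and the TATA box letters TATAAA in 4.44%, 9.43% and 14.8% of the same sets. In those sets the letters of YY1, AAGATGGCG, were in 2.22%, 5.66% and 2.14%, and the ZBTB33 palindrome in 4.44%, 1.42% and 0.755%. The letters of CRE, TGACGTCA, were in 0 of the 45 genes, 4.13% of higher genes and 2.54% of all protein-coding genes. In the 39 other ribosome synthesis genes the shares were 59.0% for the GC box, 12.8% for NRF1 and 28.2% for CCAAT. In that set they were 7.69% for the TATA box, 7.69% for YY1, 0% for ZBTB33 and 2.56% for CRE. The median window of the 45 genes held 21 CpG pairs, against 15 for genes of the table and 13 for all protein-coding genes. Base composition differs between these sets, and no share was tested.

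**Figure D5:**
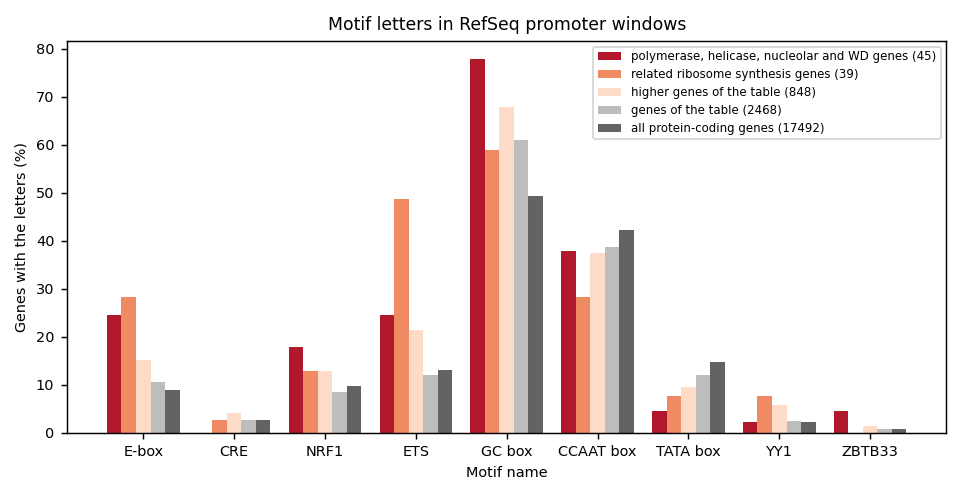
Share of genes (vertical axis, percent) whose RefSeq promoter window holds the letters of each named motif (horizontal axis), for the polymerase, helicase, nucleolar and WD genes, other ribosome synthesis genes, higher genes of the table, all its genes and all protein-coding genes. The E-box share is 24.4% in the first set, 15.1% in higher genes of the table and 8.91% in the last set.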

How the data were processed

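RNA-seq libraries were made with a kit that keeps strand, per the labels' protocols. The submitters' processing notes name FastQC, STAR, DESeq2 and the mm10 build. Their settings, the counter, the annotation and whether counting used strand are not given in the sources used here. A single table of 3261 rows was deposited, with a signed fold score per the file headers, a log2 fold change, the p-values and adjusted p-values of the authors, and log2 normalized values per library whose transformation was not given. The 4 rows of 2 repeated symbols were left out, and 3257 genes were analysed, all with a deposited adjusted p under 0.05. Groups came from the sample titles.

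KO and WT were compared with limma 3.58.1 (R 4.3.3, mean-variance trend, no covariate) on the deposited log2 values, with Benjamini-Hochberg adjustment over 3257 genes, and the script was tested on simulated data. A gene was called at an adjusted p under 0.05 and a deposited fold of at least 1.5. The values were already log2, so the planned pseudocount was not run. The genes, roles, complexes and lists were chosen with earlier results of these data known. Values per library are given for every Polr gene, for the 4 largest folds in each direction in each other role, for the 3 folds nearest 1.5, for genes that run against their role and for the 2 of widest spread, and in the related lists the 3 largest folds in each direction are named. Further partners of the complexes, Taf1c, Gltscr2 and genes that neighbour a described gene were named after their values were seen. List symbols were matched through RefSeq symbols and synonyms. Coordinates are GRCm38 from RefSeq, and overlaps come from GENCODE M21. The alternatives were other scalings, no trend, a filter, stricter thresholds of 0.01 and 2-fold, a replicate block and leaving out each library. Of the 50 genes, 11 overlap an exon of a protein-coding gene on the other strand, so their values are uncertain if reads were counted without strand. These are Ddx39, Nol3, Nop56, Polr3gl, Rrp7a, Rrp8, Rrp9, Wdr12, Wdr54, Wdr55 and Wdr77. On the same strand, 4 of the 50 genes share exon sequence with other genes, so their values are uncertain too. They are Nop56 and Nop58, with small nucleolar RNA genes, Wdr77, with Gm42890, and Wdr90, with Rhot2.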

Additional observations from a re-analysis of the deposited data

How the results depend on the processing

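The 46 genes called higher and the 45 other ribosome synthesis genes called higher kept their direction and call under both rescalings, without the mean-variance trend and without the lowest 25% of genes. Genes called lower by limma numbered 4, and 0 after quantile normalization and 0 after the median shift, with 0 of the 4 at an unadjusted p under 0.05 in either. Quantile normalization turned the differences of Ddx59 to 0.029, Polr3gl to 0.10, Wdr54 to 0.10 and Wdr90 to 0.046. With a fold minimum of 2, 10 were called higher and 0 lower, and 8 of the other ribosome synthesis genes were called higher. At an adjusted p of 0.01, 2 of the 50 genes, Polr3g and Wdr54, lost their call. Leaving out each library in turn gave 45 to 46 higher and 4 lower genes, and 45 other ribosome synthesis genes. The replicate numbers were not shown to pair the libraries (correlation of same-numbered deviations 0.18, -0.07 and -0.0039 over 3257 genes), and the replicate block left 46 higher and 4 lower. Under quantile normalization and the median shift the KO and WT values of 46 genes did not overlap in the original direction. The planned pseudocount was not run, since the values were already log2. Both rescalings re-centre a table selected by fold in which most genes were lower, so by their construction small negative differences move towards 0, and the calls kept by higher genes are no independent support. After the median shift the 4 differences stayed below 0. The depth is unknown, so no counting error could be given.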

Other observations

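Some of the 50 genes stand beside, or hold, other genes of interest in GENCODE M21. A protein-coding gene on the other strand starts within 1000 bases, head to head, for 14 of the 50 (28%), against 6.79% of 21951 protein-coding genes. The share among the genes analysed, or among the higher ones, was not computed and no test was made, so the trait cannot be called particular to these genes. The 14 pairs include Wdr46 with Pfdn6, a prefoldin gene, Ddx31 with Gtf3c4, a polymerase III factor, and Polr3a with Rps24, a ribosomal protein gene. Of the 14 partners, 3 were analysed. Gtf3c4, beside Ddx31, was 1.61-fold and Mbtd1, beside Utp18, 1.64-fold higher in the authors' deposited table, and Ndufv3, beside Wdr4, was 1.79-fold lower. Small nucleolar RNA genes lie within Nop56 (5), Nop58 (4) and Wdr43 (3) on the same strand. These small RNAs were not analysed here.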
